A study of Mus musculus with 11 samples.

Results

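Tyrosine tRNAs were taken as all entries whose name starts with tRNA-Tyr, and 7 of the 301 tRNA entries met this rule, all with the anticodon GTA. They are named here without their prefix: TyrGTA12, TyrGTA5, TyrGTA24, TyrGTA17, TyrGTA7, TyrGTA13 and TyrGTA14. The cells were mouse embryonic fibroblasts labelled as wild type and expressing SV40 T antigen, stably transduced in 3 ways: empty vector, METTL1-Wt+WDR4, and METTL1-Mut+WDR4, a mutant whose change the labels do not give. The labels' protocols speak of stable clones made with pBabe vectors and kept on puromycin and G418, without antibiotic during expansion, and describe only the empty vector and wild-type constructs. Abundance comes from 6 input libraries, 2 for each construct, made from small RNA treated with wild-type and D135S AlkB, enzymes that strip other methyl groups before sequencing. The 5 cleaved libraries, in which the methylated base is cut, were not analysed here, so these values are levels of tRNA and not of its methylation. The tables hold tRNA only, so neither the fibroblast identity nor the expression of METTL1 can be checked in them.

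Tyrosine tRNA carries tyrosine to the codons UAC and UAU, and tyrosyl-tRNA synthetase charges it. Its precursor is unusual in holding an intron in the anticodon loop, which the TSEN endonuclease cuts out before a ligase joins the ends. The G that opens the anticodon is exchanged for queuosine, which vertebrates extend with galactose in this tRNA, and the variable loop carries the N7-methylguanosine (m7G) that the METTL1-WDR4 complex places. The loss of that mark is known to lower the stability of some tRNAs in yeast and mammals, and the study compared tRNA abundance between the constructs.

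RefSeq lists 10 tyrosine tRNA genes in the mouse build GRCm38.p6, the assembly that mm10 denotes, named n-TYgta1 to n-TYgta10. The entry numbers of the tables are not paired with these genes, so no entry is placed on the genome here. Of the 10 genes, 6 lie on chromosome 13 between positions 23425646 and 23467165, a span of 41.5 kb that also holds 10 tRNA genes of other families. The nearest protein-coding gene is Abt1 for 5 of these 6 and Btn1a1, a butyrophilin gene, for n-TYgta8. On chromosome 3 there are 2 genes, n-TYgta1 at 19628355 to 19628447 and n-TYgta2 at 19628782 to 19628870, 15897 and 15474 bases from Trim55. The remaining genes are n-TYgta9 on chromosome 5 at 30888083 to 30888171, 468 bases from Agbl5, and n-TYgta10 on chromosome 14 at 51089489 to 51089578, near Rnase4. On chromosome 13 n-TYgta6 overlaps a long noncoding RNA gene, and n-TYgta9 overlaps another. The 10 tyrosine tRNA genes are 86 to 93 bases long, against a median of 72 bases for the 430 tRNA genes of the same table. Outside the tyrosine family 11 tRNA genes were at least as long as the shortest of them.

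Abundance is given in RPM, the reads of an entry scaled to the same total of tRNA reads in each library, so each value is a share of tRNA reads, and fewer cells or fewer molecules per cell cannot be told apart from a change in the other tRNAs. The implied library totals ranged from 5405585 to 16003708 reads. The abundant tyrosine entries rested on 30541 to 132313 reads per library and TyrGTA14 on 130 to 369, and intervals from these reads cover counting error only, since reads copied by PCR are not independent molecules. Nothing in the labels says that the 2 libraries of a construct came from separate cultures, so p-values measure the spread between libraries, which may be technical. In limma the spread of an entry is drawn towards that of other entries of like level, so it is not the entry's own spread alone.

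The family was among the most abundant of the fibroblast tRNA pool. Its summed level stood at 40284 and 42066 RPM in the empty vector libraries, 43425 and 41437 RPM in those with wild-type METTL1, and 41500 and 45332 RPM in the mutant ones. This is 4.03% to 4.53% of tRNA reads, the rank 6 of 54 anticodon families by mean level. The libraries of the 3 constructs overlapped, with the highest value in mutant library 2 and the lowest in empty vector library 1.

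The 7 entries comprised 3 couples of neighbouring level and a single rare entry. TyrGTA12 reached 8268 and 8542 RPM in the empty vector libraries, 8971 and 8578 RPM in those with wild-type METTL1, and 8405 and 9159 RPM in the mutant ones. TyrGTA24 reached 6423 and 6757 RPM in the empty vector libraries, 6904 and 6618 RPM in those with wild-type METTL1, and 6768 and 7392 RPM in the mutant ones. In both entries mutant library 2 was highest and empty vector library 1 lowest, and the wild-type and mutant libraries overlapped. TyrGTA7 reached 5627 and 5911 RPM in the empty vector libraries, 6014 and 5700 RPM in those with wild-type METTL1, and 5761 and 6295 RPM in the mutant ones, with the same library at each end and all 3 groups overlapping.

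Their partners lay close beside them. TyrGTA5 stood at 8262, 8531, 8955, 8564, 8393 and 9150 RPM in the libraries in the same order, which is 0.0741% to 0.174% below TyrGTA12. The gap between the couple was 59 to 197 reads, or 0.191 to 0.405 times the SD that independently counted reads would have, so they differed by less than sampling noise in all 6 libraries and are treated as 1 measurement where their values are summed as an alternative. TyrGTA17 stood at 6335, 6651, 6799, 6512, 6678 and 7326 RPM, 0.909% to 1.62% below TyrGTA24, a gap of 1.74 to 3.43 such SDs. TyrGTA13 stood at 5353, 5650, 5754, 5439, 5468 and 5993 RPM, and TyrGTA7 exceeded it by 4.52% to 5.37%, a gap of 5.65 to 10.5 such SDs. The sources used here do not state how reads that fit several tyrosine genes were assigned.

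The order of levels was the same in all 6 libraries: TyrGTA12, TyrGTA5, TyrGTA24, TyrGTA17, TyrGTA7, TyrGTA13, TyrGTA14. Within a couple the RPM ranges of the libraries overlapped in every construct. The steps between couples did not overlap in any construct, with TyrGTA5 1.24 to 1.297 times TyrGTA24 and TyrGTA17 1.13 to 1.16 times TyrGTA7. RPM is not divided by length and the tables give no lengths, so these are orders of read share, and the part of length in them was not tested. TyrGTA12 had 1.51 to 1.58 times the RPM of TyrGTA13. TyrGTA14 lay far below, with TyrGTA12 at 317 to 531 times its level.

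**Figure D1:**
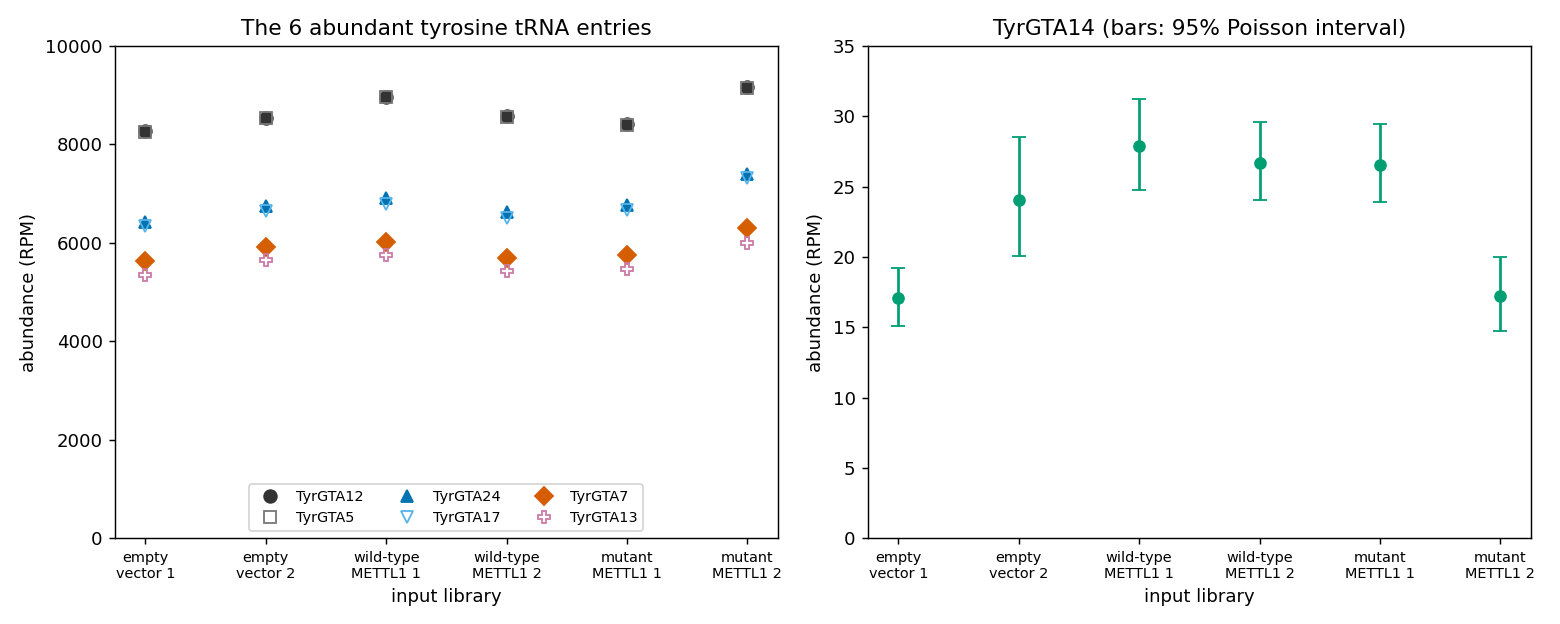
Abundance in RPM of the 7 tyrosine tRNA entries in each of the 6 input libraries, with 1 point per library, the 6 abundant entries on the left and TyrGTA14 on the right with its 95% Poisson interval. The abundant entries keep their order in each library, from 5353 to 9159 RPM, while TyrGTA14 lies between 17.1 and 27.9 RPM.

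TyrGTA14 was measured at 17.1 RPM (273 reads, 95% Poisson interval 15.1 to 19.2) and 24.05 RPM (130 reads, 20.1 to 28.6) in empty vector. With wild-type METTL1 it was at 27.9 RPM (293 reads, 24.8 to 31.2) and 26.7 RPM (369 reads, 24.1 to 29.6), and with mutant METTL1 at 26.5 RPM (362 reads, 23.9 to 29.4) and 17.2 RPM (173 reads, 14.8 to 20.0). The wild-type libraries lay above both empty vector libraries, the mutant libraries overlapped with empty vector, and the intervals of the libraries of a construct did not overlap for empty vector or for mutant.

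The first comparison asked whether cells with wild-type METTL1 and WDR4 held more tyrosine tRNA than empty vector cells. The threshold was a Benjamini-Hochberg (BH) adjusted p under 0.05 in limma. None of the 6 abundant entries passed it and the rare TyrGTA14 did, so 1 of 7 entries was called higher and 0 lower. Over all 301 entries 30.2% were called higher and 7.31% lower, 37.5% in all. TyrGTA14 averaged 20.6 ± 4.94 RPM without and 27.3 ± 0.808 RPM with the construct (± SD of 2 libraries). On the log2 scale these SDs were 0.33 and 0.04, and limma's SE also draws on the spread of other entries. The log2 fold change of TyrGTA14 was 0.41 with an SE of 0.15 (limma, BH-adjusted p = 0.0396). This call held in 4 of 13 alternative fits, with limma BH-adjusted p from 0.0014 without empty vector library 2 to 0.469 with libraries centred on the families without m7G. Leaving out empty vector library 1 gave a log2 fold change of 0.17 (limma, BH-adjusted p = 0.427), and leaving out library 2 of that group gave 0.65. Leaving out wild-type library 1 gave 0.38 (limma, BH-adjusted p = 0.147), and leaving out wild-type library 2 gave 0.44 (limma, BH-adjusted p = 0.0832).

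For the abundant entries the data set narrow limits. Their log2 fold changes ran from 0.02 (TyrGTA7) to 0.06 (TyrGTA12), with limma BH-adjusted p from 0.512 to 0.853. TyrGTA12 averaged 8405 ± 194 RPM without and 8774 ± 278 RPM with the construct (± SD of 2 libraries), a log2 fold change of 0.06 with an SE of 0.07. The 95% intervals of the 6 entries lay between −8.87% and 15.3%, so larger changes in share are outside the interval of each. In TyrGTA12 and TyrGTA5 both wild-type libraries lay above both empty vector libraries, which with TyrGTA14 makes 3 of 7 members, against 49.5% of all entries. The median log2 fold change of the 7 members was 0.04, and that of all entries 0.16. Taken relative to the median difference of all entries, which shifts the median entry by −0.14, the 6 abundant entries turned to values between −0.12 and −0.08, none of them called.

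The second comparison asked the same of mutant METTL1 with WDR4. No tyrosine entry was called in either direction, be it by the BH-adjusted limma p (0 of 7) or at an unadjusted limma p under 0.05 (0 of 7, against 15.9% of all entries). Of all entries 7.31% were called higher and 0.997% lower, 8.31% in all. The log2 fold changes of the abundant entries ran from 0.06 (TyrGTA13) to 0.11 (TyrGTA17), with limma BH-adjusted p from 0.762 to 0.851. They ran from −0.0083 to 0.041 without mutant library 2 and from 0.124 to 0.174 without mutant library 1. TyrGTA17 averaged 6493 ± 224 RPM without and 7002 ± 458 RPM with the mutant construct (± SD of 2 libraries). TyrGTA14, at 20.6 ± 4.94 and 21.9 ± 6.58 RPM, had a log2 fold change of 0.08 with an SE of 0.20 (limma, BH-adjusted p = 0.849), which was −0.22 without mutant library 1 and 0.37 without mutant library 2.

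The limits were wider here than for wild type. The 95% intervals of the abundant entries lay between −16.8% and 33.9%. They rest in part on the spread of other entries. TyrGTA12 had an SE of 0.17 in limma, with SDs on the log2 scale of 0.03 between empty vector and 0.09 between mutant libraries. Between the mutant libraries their SD on the log2 scale was 0.09 in each, against 0.15 for the median of all entries, and between the wild-type libraries it was 0.04 to 0.06, against 0.06. TyrGTA24 and TyrGTA17 had both mutant libraries above both empty vector libraries, 2 of 7 members, against 32.2% of all entries. The median of the 7 members was 0.06 and that of all entries 0.09.

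The third comparison set wild-type against mutant METTL1 directly. Again 0 of 7 tyrosine entries were called, and 0 of 7 had an unadjusted limma p under 0.05, against 25.9% of all entries. By the adjusted p, 11.3% of all entries were called higher and 3.65% lower, 15.0% in all. The log2 differences of the abundant entries, wild type minus mutant, ran from −0.07 (TyrGTA17) to −0.00032 (TyrGTA12), with limma BH-adjusted p from 0.792 to 0.998 and 95% intervals between −21.3% and 22.2%. TyrGTA14 had a log2 difference of 0.33 with an SE of 0.19 (limma, BH-adjusted p = 0.263). Both its wild-type libraries lay above both mutant libraries, the only such member of 7 against 43.2% of all entries. Wild-type library 2 (26.7 RPM, 95% Poisson interval 24.1 to 29.6) and mutant library 1 (26.5 RPM, 23.9 to 29.4) did not differ beyond counting error. Without mutant library 1 the log2 difference of TyrGTA14 became 0.63, and without mutant library 2 it became 0.04. The median of the 7 members was −0.03 and that of all entries 0.10. Both comparisons with empty vector share its 2 libraries. The authors' deposited tables give unadjusted p-values of 0.198 to 0.717 for the 7 entries with wild-type METTL1 and 0.294 to 0.839 with the mutant. The lowest of those with wild-type METTL1 belonged to TyrGTA14, the entry called here in that comparison.

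**Figure D2:**
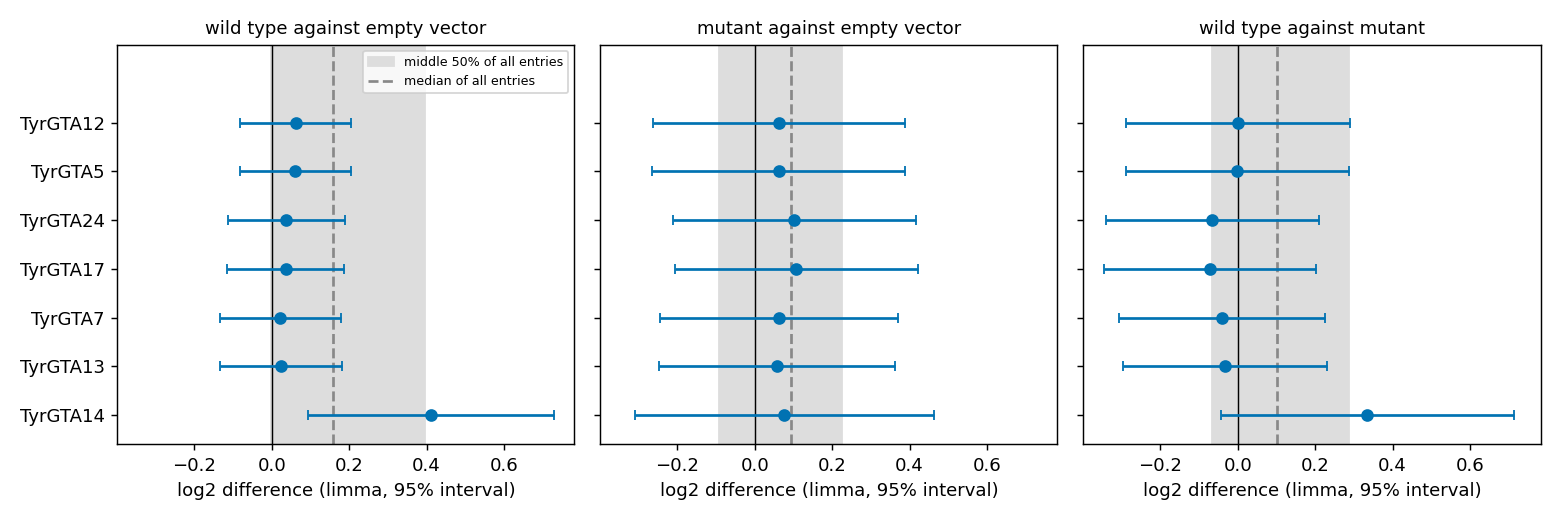
Log2 difference of each tyrosine tRNA entry in the 3 comparisons, as points with limma's 95% interval as bars, beside the median (dashed line) and the middle 50% (grey) of all 301 entries. The abundant entries lie between −0.07 and 0.11 with intervals that include 0, and the interval of TyrGTA14 lies above 0 only for wild type against empty vector, at 0.41.

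The make-up of the family was described by each entry's share of the family sum. TyrGTA12 took 20.2% to 20.7% of the family sum over the 6 libraries, TyrGTA24 15.9% to 16.3%, TyrGTA7 13.8% to 14.1% and TyrGTA14 0.0380% to 0.0645%. The ratio of TyrGTA24 to TyrGTA12 was 0.777 and 0.791 in empty vector, 0.770 and 0.771 with wild-type METTL1, and 0.805 and 0.807 with mutant METTL1. The groups did not overlap in this ratio, with mutant highest and wild type lowest, and 6 of the 15 ratios between abundant entries set the 3 groups apart. These ratios are not independent, since entries of a couple moved together and repeat the same contrast. The same count was not made for other families, so whether 6 of 15 is unusual is not known. No ratio was tested. The ratio of TyrGTA7 to TyrGTA12 was 0.681 and 0.692 in empty vector, 0.670 and 0.665 with wild type, and 0.685 and 0.687 with mutant, where wild type was lowest and the mutant values lay between those of empty vector.

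A limma fit on the log2 share of each entry within its anticodon family, over the 291 entries of families with at least 2 entries, tested shares, not the ratios between entries. This test was added after the values were seen. In the direct comparison of wild type with mutant, the share of TyrGTA12 was 2.23% larger with wild type (95% interval 0.392% to 4.09%, limma BH-adjusted p = 0.15) and that of TyrGTA17 smaller, at −2.73% (−4.76% to −0.656%, limma BH-adjusted p = 0.14). No tyrosine entry was called in any of the 3 comparisons, where 17.2% (wild type against empty vector), 0.344% (mutant against empty vector) and 0.344% (wild type against mutant) of the entries were. At an unadjusted limma p under 0.05 there were 0, 0 and 4 tyrosine entries, against 98, 75 and 84 of the 291. The 4 are TyrGTA12 with TyrGTA5, treated as 1 measurement above, and TyrGTA24 with TyrGTA17. Shares of a family add up to a fixed total, so a larger share of some entries goes with a smaller share of others. The opposite shifts of the 2 couples are therefore not separate results. The intervals of the 6 abundant entries stayed between −4.76% and 4.63% in all 3 comparisons, so changes in their share beyond this lie outside them, while those of TyrGTA14 reached from −48.1% to 128%.

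**Figure D3:**
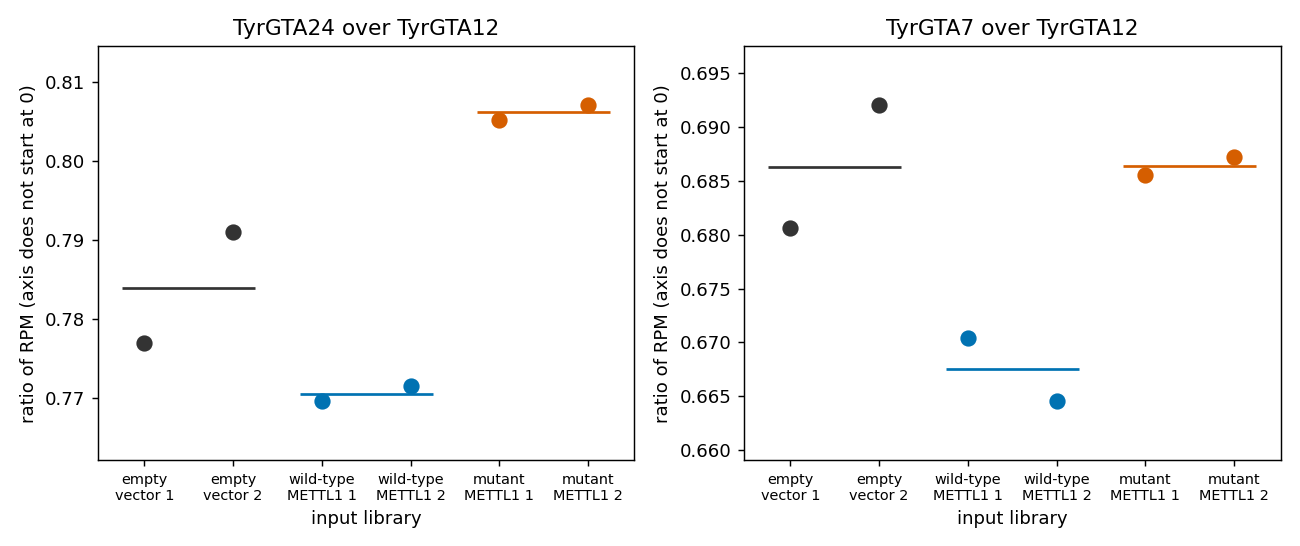
Ratio of TyrGTA24 to TyrGTA12 (left) and of TyrGTA7 to TyrGTA12 (right) in each input library, with group means as lines and axes that do not start at 0. The left ratio is 0.770 to 0.771 with wild-type METTL1 and 0.805 to 0.807 with mutant METTL1, with empty vector between them.

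Summed over entries, the family was 3.05% higher with wild-type METTL1 than with empty vector (log2 ratio 0.04) and 5.44% higher with mutant METTL1 (0.08). These sums received no test. Leaving out 1 library moved them between 0.0092 and 0.077 and between 0.011 and 0.139. Both turned negative with libraries centred on the families without m7G (−0.16 and −0.023) or on the median difference of all entries (−0.098 and −0.021). The first centring aligned the median level of the entries without m7G and moved the median of all entries by −0.21 with wild type. The median log2 fold change of the entries without m7G was 0.11, so −0.16 is not the change relative to them. Libraries of the same construct had SDs of log2 RPM of 0.04 (empty vector), 0.05 (wild type) and 0.09 (mutant). The uncentred ratios of 0.04 and 0.08 were thus no larger than the spread between libraries of at least 1 of the groups compared. By size without sign, the family ranked 10, 9 and 7 from the smallest among 49 anticodon families of at least 10 RPM in the 3 comparisons. Counting 1 entry of each couple left the log2 ratios at 0.04, 0.08 and −0.03.

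Families that share a processing step with tyrosine tRNA were summed in the same way, with no test. The other tRNAs with queuosine are HisGTG, AsnGTT and AspGTC, which read the histidine, asparagine and aspartate codons. Relative to empty vector, their sums had log2 ratios of 0.07, −0.09 and 0.63 with wild-type METTL1 and of −0.45, −0.29 and 0.57 with mutant METTL1. Of their 14 entries 7 were called higher with wild type and 4 with mutant, and none lower in either, where 30.2% and 7.31% of all entries were called higher. Their median log2 fold change was 0.31 with wild type and −0.01 with mutant, against 0.16 and 0.09 over all entries. With the 7 tyrosine entries added, 8 of 21 and 4 of 21 were called higher.

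Other mouse families with intron-containing genes are ArgTCT, IleTAT and LeuCAA. Their sums had log2 ratios of 0.12, −0.08 and 0.05 with wild-type METTL1 and 0.27, −0.28 and 0.23 with mutant METTL1. In ArgTCT the mutant libraries stood at 5627 and 4003 RPM against an empty vector mean of 3995 RPM. In LeuCAA they stood at 69116 and 92622 RPM against 68936 RPM, so in both families only 1 mutant library lay far from the empty vector mean. Of the 14 entries of the 3 families 1 was called higher with wild type and 2 with mutant, and none lower, with medians of 0.06 and 0.22, beside the same shares of all entries. Of the 169 m7G entries other than tyrosine, 64 were called higher and 15 lower with wild type (median 0.21), and 11 and 1 with mutant (median 0.09). Over all 301 entries 91 were called higher and 22 lower with wild type, and 22 and 3 with mutant. Of the 105 entries of families without m7G, 25 and 6 were called with wild type (median 0.11) and 8 and 2 with mutant (median 0.10).

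**Figure D4:**
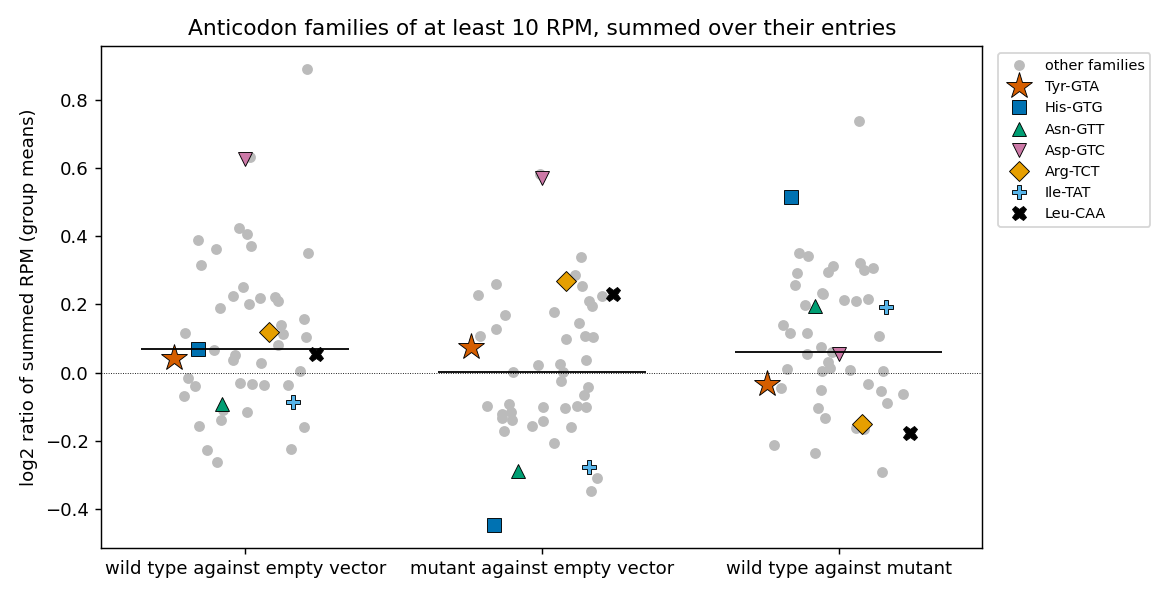
Log2 ratio of summed RPM between group means for 49 anticodon families of at least 10 RPM, with the median of the families as a line. Tyr-GTA lies at 0.04, 0.08 and −0.03, while the other queuosine families reach 0.63 (Asp-GTC, wild type against empty vector) and −0.45 (His-GTG, mutant against empty vector).

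The profile of the tyrosine sum over the 6 libraries was compared with those of 236 other entries of at least 10 RPM, as the root mean square (RMS) difference of centred log2 values. The abundant tyrosine entries lay at 0.0096 to 0.0176 from the sum they make up, and TyrGTA14 at 0.296. The closest entries of other families were the isoleucine entries IleAAT35 (0.0423) and IleAAT45 (0.0448), the glycine entries GlyCCC22 (0.0522) and GlyCCC1 (0.0645), and the glutamine entry GlnCTG7 (0.0625), against a median of 0.163. IleAAT35 ranged over the libraries from 1008 RPM (mutant library 1) to 1096 RPM (mutant library 2). Of these 5 entries, 2 belong to the m7G list. The libraries are shared by all entries, so likeness is a description only, and 1 of the 5 remained among the closest without empty vector library 2.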

How the data were processed

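Trim Galore, Bowtie and bedtools, with no version, and the build mm10 are named per the submitters' processing notes. The authors deposited RPM for 301 tRNA entries per input library, in 2 tables with the same empty vector columns. They also deposited a fold change (a ratio of mean RPM), its log2 value, an unadjusted p-value and its −log10, per the file headers. All values were whole multiples of 1 read within 0.01 reads, and the implied reads served only for counting error.

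Tests used log2(RPM + 1), which understates changes of low entries. Each comparison was fitted on its own 4 libraries in limma 3.58.1 (R 4.3.3), with the prior variance following the mean level, no covariates and no filter. P-values were BH-adjusted over all 301 entries. The fit was tested on simulated data. Alternatives changed the pseudocount, level filter, variance trend, centring, libraries and replicate block. Centring on all entries or on families without m7G aligned the median level of those entries between libraries, not their median difference. The share test, the ratios between entries, the sum with 1 entry of each couple, the crossed block and centring on the median difference were added after seeing the data. All 7 tyrosine entries were named, with the 5 entries nearest in profile. The members and lists were chosen with earlier results of these data known, and the lists rest on background knowledge. No sequence of these tRNAs was used here.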

Additional observations from a re-analysis of the deposited data

How the results depend on the processing

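No alternative called an abundant tyrosine entry. With replicate number as a block the calls were 1, 0 and 0 of 7 (wild type against empty vector, mutant against empty vector, wild type against mutant) and the summed log2 ratios 0.0433, 0.0754 and −0.0321. Same-numbered libraries correlated at 0.0927, −0.116 and −0.0537 across entries in their deviations from the group means, so the numbers were not taken as pairs, and crossed pairing for mutant against empty vector called 18 entries higher and 4 lower, 0 of them tyrosine. The TyrGTA14 call with wild-type METTL1 was kept with pseudocounts of 0.1 and 10 RPM, and 0 of 7 entries were called with a mean of at least 10 RPM, without a variance trend, with all 6 libraries in 1 fit, or with libraries centred on families without m7G, on all entries or on the median difference of all entries. Leaving out 1 library gave 0 to 1 calls for wild type against empty vector and for wild type against mutant, and 0 to 1 calls on shares within the family in both. Over all 301 entries the alternatives called 29 to 116 higher and 0 to 42 lower, 6 to 25 and 0 to 6, and 1 to 87 and 2 to 43 in the 3 comparisons, where 91 and 22, 22 and 3, and 34 and 11 were reported. Centring on the median level of entries of families without m7G moves the median of all entries by −0.21, −0.10 and −0.10. It gave summed log2 ratios of −0.16, −0.023 and −0.14, and centring on the median difference gave −0.098, −0.021 and −0.15. With wild type against empty vector, centring on families without m7G turned TyrGTA12 and TyrGTA5 to −0.14, TyrGTA24 and TyrGTA17 to −0.17, and TyrGTA7 and TyrGTA13 to −0.18. Centring on the median difference gave −0.079, −0.080, −0.10, −0.11, −0.12 and −0.12 in the same order, and centring on all entries gave −0.0016 for TyrGTA7. For mutant against empty vector the families without m7G gave −0.041 (TyrGTA12), −0.041 (TyrGTA5), −0.00024 (TyrGTA24), −0.040 (TyrGTA7), −0.045 (TyrGTA13) and −0.027 (TyrGTA14), and the median difference −0.035, −0.035 (TyrGTA12, TyrGTA5), −0.034 (TyrGTA7), −0.039 (TyrGTA13) and −0.021 (TyrGTA14). For wild type against mutant, centring on all entries gave 0.021 for TyrGTA12 and 0.020 for TyrGTA5. Leaving out 1 library moved log2 values across 0 for wild type against empty vector in TyrGTA7 (−0.017 to 0.061) and TyrGTA13 (−0.016 to 0.065). It did so for mutant against empty vector in TyrGTA5 (−0.00037 to 0.124), TyrGTA7 (−0.0015 to 0.126), TyrGTA13 (−0.0083 to 0.124) and TyrGTA14 (−0.22 to 0.37), and for wild type against mutant in TyrGTA12 (−0.062 to 0.062), TyrGTA5 (−0.063 to 0.061), TyrGTA7 (−0.10 to 0.023) and TyrGTA13 (−0.099 to 0.033). The cause of these turns was not tested, and none of these turned values was called. Planned count-model tests were not run, since too few low values stood in each column to accept the implied reads as counts. Among the tyrosine entries TyrGTA14 had the fewest reads, 130 to 369, and its empty vector and mutant libraries differed beyond their Poisson intervals.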
